A study of Mus musculus with 18 samples.

Results

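The 10 genes described here are members of the BCL2 family and the core of the p53 pathway that control the mitochondrial route of apoptosis. They were taken by name from a table of 51467 genes, and all 10 were among the 12851 genes with enough reads to be tested. The set comprises the BH3-only genes Pmaip1, Bbc3, Bcl2l11 and Bid, the pore-forming effectors Bax and Bak1, the anti-apoptotic genes Bcl2l1 and Mcl1, and Trp53 with its regulator Mdm2. The set was chosen by role and, in part, selected on the values of Pmaip1 in these same libraries, which was higher in level but lower in translation level in the knockout. Its differences between the genotypes are therefore given as a description with no test, and tests cover the other 9 genes.

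Polysome profiling was carried out on 2 genotypes of mouse embryonic stem cells (ESCs), wild type (WT, the V6.5 line) and Dgcr8 knockout (KO, a single line made earlier). Both were grown with serum, LIF and 2i, a pair of kinase inhibitors, and both were given 100 ug/ml cycloheximide for 2 min, which holds ribosomes on the message. Each of 6 sucrose gradients, 3 per genotype, gave a monosome, a low polysome and a high polysome fraction, so there were 18 libraries in 6 groups of 3. The libraries held 1151649 to 4984833 reads in genes, and nothing states that gradients of 1 genotype came from separate cultures, so p-values measure only the spread between these samples.

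Apoptosis through mitochondria is set by binding between BCL2 family proteins. BAX and BAK open the outer mitochondrial membrane, BCL-XL and MCL1 hold them back, and the BH3-only proteins release or activate the effectors. p53, the product of Trp53, switches on transcription of Pmaip1, Bbc3, Bax and Mdm2, and MDM2 in turn marks p53 for degradation. DGCR8 is needed to make microRNAs, short RNAs that pair through their seed with the 3′ UTR of messages and lower the stability and translation of those messages.

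The most abundant microRNAs of ESCs belong to a few seed families, and their sequences are given here because they need DGCR8. In the mature sequences from RefSeq (GRCm38.p6), the seed, bases 2 to 8, is in capitals. The first 3 belong to the ESC-enriched family from chromosome 7, the next to the miR-17 family and the last to the miR-92 family.
miR-291a-3p: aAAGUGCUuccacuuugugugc
miR-294-3p: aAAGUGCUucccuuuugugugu
miR-295-3p: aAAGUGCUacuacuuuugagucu
miR-17-5p: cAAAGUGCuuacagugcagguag
miR-92a-3p: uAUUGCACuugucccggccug
The first 3 sequences share the seed AAGUGCU, and the miR-17 seed AAAGUGC is the same stretch moved by 1 base.

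The 3′ UTR of 1 transcript per gene (GENCODE M21) was searched on the sense strand for letters that pair with bases 2 to 8 of each seed, or with bases 2 to 7 followed by A. The letters were AGCACTT for bases 2 to 8 of the ESC-enriched family and GCACTTA for the shorter kind. For miR-17 they were GCACTTT and, for the shorter kind, CACTTTA. For miR-92 they were GTGCAAT and, for the shorter kind, TGCAATA. The first and second families share most of these letters, so AGCACTTT counts as a match to both. Of 11671 genes with a 3′ UTR, 19.4% held a match to the ESC-enriched family, 20.5% to miR-17 and 12.6% to miR-92. Bcl2l11 and Mcl1 held matches to all 3 families, Bak1 held only a miR-92 match and Bid only a miR-17 match, while Pmaip1, Bbc3, Bax, Bcl2l1, Trp53 and Mdm2 held none. The matches of Bcl2l11 to the ESC-enriched family lie on the plus strand of mm10 at chr2:128159580-128159586, chr2:128159777-128159783 and chr2:128160451-128160457, and that of Mcl1 at chr3:95662642-95662648, all in the 3′ UTR, with the matching letters in capitals.
Bcl2l11, 3′ UTR base 1251: atgccgagtaaAGCACTTgtcttccacaa
Bcl2l11, 3′ UTR base 1448: cctggtggaggAGCACTTtctaacctgtg
Bcl2l11, 3′ UTR base 2122: tccccgactggAGCACTTtactgtctcag
Mcl1, 3′ UTR base 1819: tcggacttcagAGCACTTtatgtagttga
The longest matches to miR-92 were 8 bases long and lay at chr2:128162449-128162456 in Bcl2l11 and at chr3:95660832-95660839 in Mcl1.
Bcl2l11, 3′ UTR base 4120: ccactgtacctGTGCAATActgctgtaaat
Mcl1, 3′ UTR base 9: ccttgtgaGTGCAATAggggactctta
The matches of the other members lie on the minus strand, at chr17:27019820-27019826 for miR-92 in Bak1 and at chr6:120892909-120892915 for miR-17 in Bid.
Bak1, 3′ UTR base 1105: ggaaataaactGTGCAATgcccccaaca
Bid, 3′ UTR base 1366: caagagtgcatGCACTTTtagaatatgaa
The number of matches grows with length. The 3′ UTR of Bcl2l11 is 4218 bases long, and 49.0% of the 886 genes with a 3′ UTR of similar length held a match to the ESC-enriched family. The 3′ UTR of Pmaip1 is 2187 bases long with none, where 31.0% of 1662 genes of similar length held one. A match describes letters only, and binding was not measured.

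The levels of the members are given as CPM, the reads of a gene scaled to a common library size, with TMM scaling, which sets the libraries on a common scale. QuantSeq gives about 1 read position per message at its 3′ end, so the level, a share of the reads of a library, is not divided by gene length. A lower level in 1 fraction is a lower share of its reads. This share also depends on how the message is spread along the gradient and on the other messages in that fraction. Fewer cells that express the gene and less RNA per cell cannot be told apart in these bulk fractions. The translation level is the ratio of high polysome to monosome level, and a gene was called where the adjusted p was below 0.05 and the log2 change above 1 in size. Libraries are scaled to a common size. A ratio of 1 is thus relative to other messages and does not show where most copies lie.

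**Figure D1:**
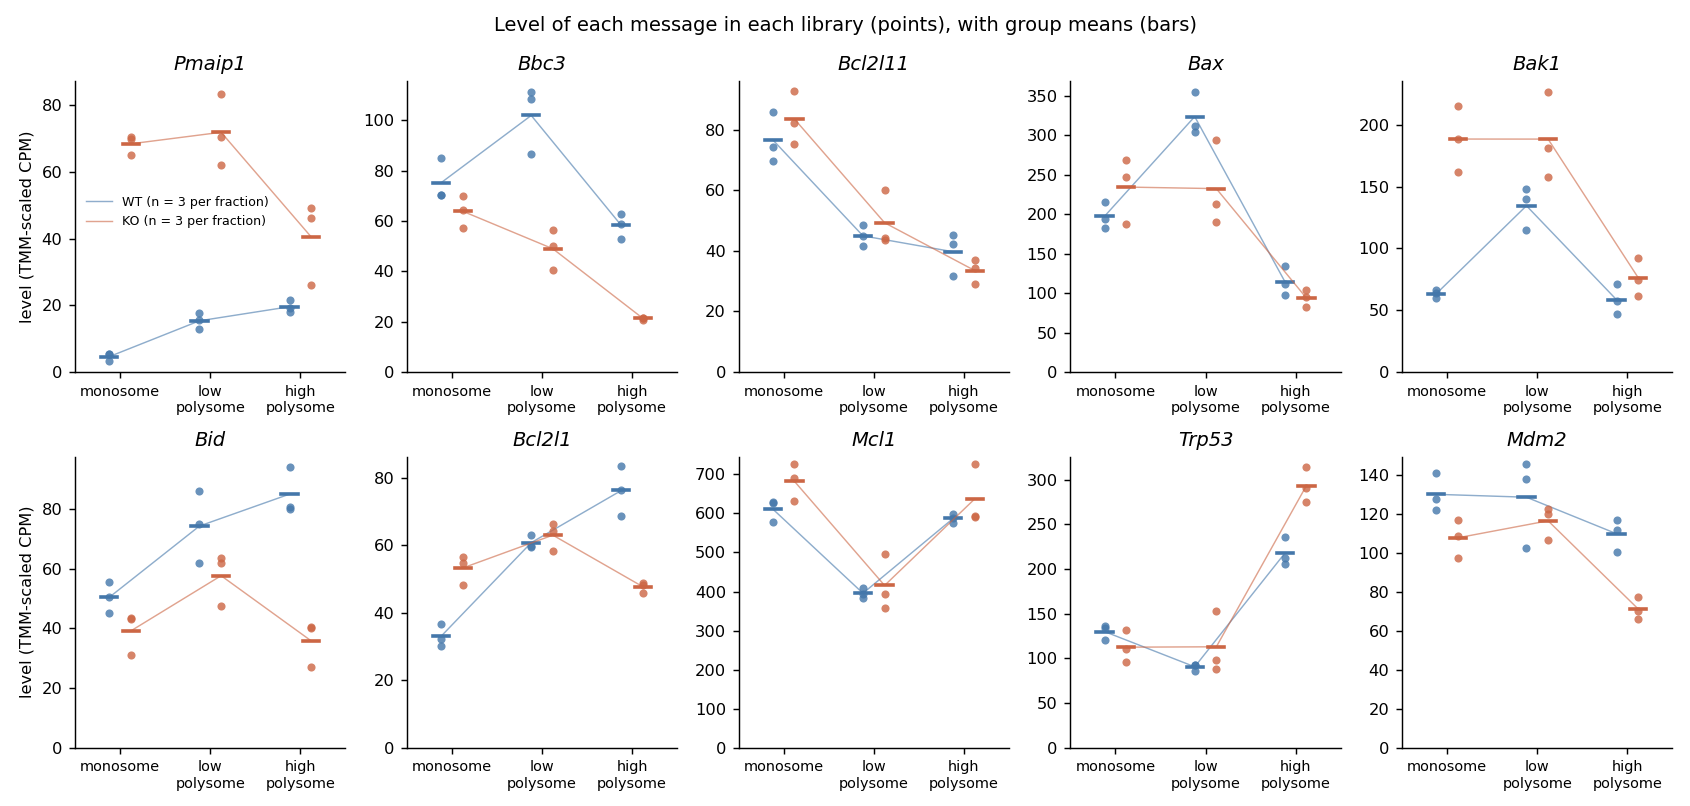
Level of each of the 10 messages (y axis, TMM-scaled CPM, from 0) in the monosome, low polysome and high polysome fractions (x axis) of WT and KO ESCs; points are libraries, bars are group means and n = 3. Pmaip1 lies higher in the KO in every fraction, with the largest gap in monosomes (4.63 against 68.5 CPM), while Bbc3 lies lower in the KO in low and high polysomes.

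Pmaip1, which encodes the BH3-only protein NOXA, a partner of MCL1, had the widest range of levels as a ratio of highest to lowest library. In WT monosomes the 3 libraries held 8, 5 and 6 reads, or 5.36, 3.23 and 5.30 CPM, and in KO monosomes 117, 180 and 180 reads, or 65.0, 69.9 and 70.5 CPM. The WT low polysome libraries gave 15.5, 12.8 and 17.8 CPM and the KO ones 62.1, 83.3 and 70.4 CPM. The WT high polysome libraries gave 19.1, 18.02 and 21.7 CPM and the KO ones 26.1, 46.3 and 49.2 CPM. The genotypes did not overlap in any fraction, and the gap narrowed along the gradient. The fitted log2 difference, KO over WT, was 3.84 (SE 0.43) in monosomes, 2.22 (SE 0.20) in low polysomes and 1.01 (SE 0.20) in high polysomes, so the ratio of mean levels was 14.8, 4.68 and 2.07. The order of the group means was WT monosomes (4.63 CPM), WT low polysomes (15.4), WT high polysomes (19.6), KO high polysomes (40.5), KO monosomes (68.5) and KO low polysomes (71.9), of which the last pair overlapped between libraries.

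The position of Pmaip1 on the gradient within each genotype enters the difference that chose it, so it is given here as values alone. In WT cells the high polysome to monosome ratio of Pmaip1 lay above 1 in all 3 gradients, with log2 ratios (prior count 2) of 1.71, 2.25 and 1.89 and a fitted value of 2.04 (SE 0.45). In KO cells the log2 ratios were -1.29, -0.59 and -0.51, with a fitted value of -0.79 (SE 0.17). The high polysome to monosome ratio thus lay above 1 in WT and below 1 in KO, a fitted difference of -2.83 (SE 0.48). The KO low polysome to monosome log2 ratios were -0.07, 0.25 and -0.002, so low polysomes and monosomes were close in KO. The WT value rests on 5 to 8 monosome reads per library. Of the 12850 other genes, 704 were called higher in the KO in all 3 fractions, and 9 of these were also called lower in translation level. That pattern is the one that chose Pmaip1, so these counts are a description and no evidence on Pmaip1. With 1 gradient left out, the high polysome difference of Pmaip1 ranged from 0.83 to 1.28, on both sides of the fold threshold.

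Bbc3, which encodes PUMA, a BH3-only protein that binds every anti-apoptotic family member, fell in both polysome fractions of the KO. Its monosome levels were 70.3, 70.3 and 84.9 CPM in WT and 64.5, 69.9 and 57.2 CPM in KO. Its low polysome levels were 111, 108 and 86.4 CPM in WT and 40.6, 56.4 and 49.9 CPM in KO, and its high polysome levels were 58.9, 52.98 and 62.7 CPM in WT and 20.8, 21.4 and 21.6 CPM in KO. The genotypes lay close together in monosomes and far apart in both polysome fractions. Bbc3 fell by 1.06 on the log2 scale in low polysomes (SE 0.14, adjusted p = 2.21e-08) and by 1.44 in high polysomes (SE 0.17, adjusted p = 1.07e-09), with -0.23 in monosomes (SE 0.16, adjusted p = 0.273). Without the first KO gradient the low polysome value of Bbc3 was -0.93, under the fold threshold. With the trend of all genes on coding length subtracted, the low and high polysome values of Bbc3 were -0.71 and -0.72, and neither was called.

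Bid encodes a BH3-only protein that caspase-8 cuts into its active form. Its high polysome levels were 80.7, 94.1 and 79.9 CPM in WT and 40.3, 40.1 and 26.9 CPM in KO, and the genotypes did not overlap. Bid fell by 1.29 in high polysomes (SE 0.16, adjusted p = 9.10e-09), with -0.39 in monosomes (SE 0.20, adjusted p = 0.131) and -0.36 in low polysomes (SE 0.15, adjusted p = 0.0442). With the trend on coding length subtracted, the high polysome value of Bid was -0.58 and was not called. Bid overlaps Gm44260 on the same strand, a gene with 327 reads over all libraries. Whether the overlap lies in exons, and so whether reads were lost there, was not tested.

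Bcl2l11 encodes BIM, a BH3-only protein that responds to loss of survival signals, and its message holds the most seed matches of the 10 genes. Its monosome levels were 74.3, 69.7 and 85.8 CPM in WT and 82.3, 75.3 and 92.8 CPM in KO, which overlapped. The log2 difference of Bcl2l11 was 0.13 in monosomes (95% interval -0.19 to 0.45), 0.13 in low polysomes (-0.18 to 0.44) and -0.24 in high polysomes (-0.58 to 0.10), and none passed the test.

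Bak1, an effector that sits in the outer mitochondrial membrane, was the 1 tested member called higher in the KO within a fraction. Its monosome levels were 63.6, 66.5 and 60.1 CPM in WT and 162, 215 and 189 CPM in KO. Its low polysome levels were 148, 140 and 115 CPM in WT and 158, 227 and 181 CPM in KO, and its high polysome levels were 71.0, 57.3 and 47.1 CPM in WT and 61.5, 74.9 and 92.6 CPM in KO. The genotypes were far apart in monosomes, just apart in low polysomes and overlapped in high polysomes. Bak1 rose by 1.56 on the log2 scale in monosomes (SE 0.18, adjusted p = 3.25e-09), a ratio of mean levels of 2.97. The differences of 0.48 in low polysomes (SE 0.14, adjusted p = 0.00499) and 0.40 in high polysomes (SE 0.16, adjusted p = 0.0319) lay under the fold threshold.

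Bax, the effector that moves from the cytosol to mitochondria, differed less. Its low polysome levels were 355, 312 and 305 CPM in WT and 190, 294 and 213 CPM in KO, without overlap, and the log2 difference was -0.50 (SE 0.14, adjusted p = 0.00226), under the fold threshold. In monosomes the log2 difference of Bax was 0.24 (95% interval -0.06 to 0.54) and in high polysomes -0.28 (-0.58 to 0.03). Bax overlaps Gm45808 on the same strand, a gene with 0 reads.

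Bcl2l1, which encodes BCL-XL, differed in opposite directions at the ends of the gradient. Its monosome levels were 36.8, 32.3 and 30.1 CPM in WT and 48.4, 56.7 and 54.8 CPM in KO, while its high polysome levels were 76.4, 83.6 and 68.8 CPM in WT and 48.9, 46.0 and 48.3 CPM in KO. KO libraries were all above WT in monosomes and all below WT in high polysomes. The log2 differences were 0.68 in monosomes (SE 0.18, adjusted p = 0.00220) and -0.67 in high polysomes (SE 0.13, adjusted p = 2.68e-05), both under the fold threshold, and 0.05 in low polysomes (95% interval -0.21 to 0.31).

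Mcl1, an anti-apoptotic gene with a short-lived protein, differed little between the genotypes. Its monosome levels were 579, 626 and 629 CPM in WT and 690, 726 and 631 CPM in KO. Its high polysome levels were 575, 588 and 598 CPM in WT and 727, 595 and 590 CPM in KO. The log2 difference was 0.16 in monosomes (95% interval -0.08 to 0.39), 0.06 in low polysomes (-0.17 to 0.29) and 0.11 in high polysomes (-0.12 to 0.34), so a change of the size of the fold threshold lay outside each interval.

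Trp53 and Mdm2 were called in no fraction. In high polysomes Trp53 had 235, 212 and 206 CPM in WT and 291, 275 and 314 CPM in KO, and the log2 difference was 0.43 (SE 0.13, adjusted p = 0.00507). Mdm2, the ubiquitin ligase of p53, had 101, 112 and 117 CPM in WT and 65.8, 77.4 and 70.3 CPM in KO, and the log2 difference was -0.63 (SE 0.13, adjusted p = 0.000105). KO libraries thus all lay above WT for Trp53 and all below WT for Mdm2, both by less than the fold threshold. In monosomes the values were -0.21 for Trp53 (SE 0.16) and -0.28 for Mdm2 (SE 0.14), and neither passed. A processed copy, Trp53-ps, had no reads in the table, and reads that map equally to both had been dropped.

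**Figure D2:**
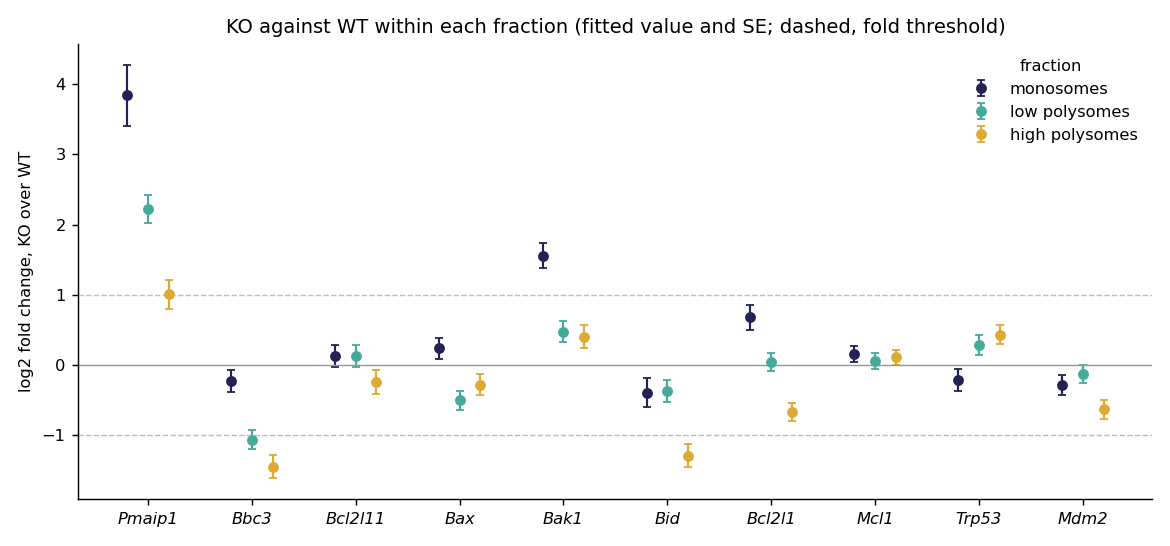
Fitted log2 fold change of each message, KO over WT (y axis), within monosomes, low polysomes and high polysomes; points are fitted values, bars are SE, n = 3 libraries per group, and dashed lines mark the fold threshold. Pmaip1 lies at 3.84, 2.22 and 1.01, and Bak1 at 1.56 in monosomes is the only other point above the upper line.

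Counted over the 9 tested members, 1 (Bak1) was called higher and 0 lower in monosomes, where 8.43% of all 12851 genes were called higher, 9.63% lower and 18.1% in all. In low polysomes 1 (Bbc3) was called lower, where 13.6% of all genes were lower, 11.4% higher and 25.0% either. In high polysomes 2 (Bbc3 and Bid) were called lower, where 17.9% of all genes were lower, 15.1% higher and 33.1% either. The median log2 difference of the 9 members was 0.13, 0.05 and -0.28 in the 3 fractions, beside -0.05, 0.00 and -0.08 over all genes. In high polysomes 1946 genes were called higher and 2303 lower, and 1426 and 3114 when libraries were scaled by total counts alone, a scaling that moved the median of all genes to -0.31.

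By the adjusted p alone, without a fold threshold, 2 of the 9 members passed in monosomes, where 37.3% of all genes did, 4 in low polysomes, where 52.3% did, and 6 in high polysomes, where 60.7% did.

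The second question was how each message was spread along the gradient and whether that differed between the genotypes. In WT cells 1 of the 9 tested members, Bcl2l1, had a translation level called above 1 and 0 were called below, where 10.7% of all genes were called above, 19.3% below and 30.1% either. Bcl2l1 had log2 ratios of 1.04, 1.35 and 1.18 and a fitted value of 1.18 (SE 0.17, adjusted p = 1.71e-07). Trp53 and Bid followed with 0.74 (SE 0.15) and 0.75 (SE 0.18), Mdm2, Bak1 and Mcl1 lay between -0.25 and -0.06, Bbc3 was at -0.36 (SE 0.16), and Bcl2l11 and Bax were at -0.95 (SE 0.17) and -0.80 (SE 0.15). Without the first WT gradient Bcl2l11 was called as well, at -1.02. In KO cells 1 of the 9, Trp53, was called above and 4 below, where 17.5% of all genes were called above, 25.5% below and 43.0% either. The 4 were Bbc3 at -1.57 (SE 0.17), Bcl2l11 at -1.32 (SE 0.16), Bax at -1.31 (SE 0.15) and Bak1 at -1.31 (SE 0.15). By the adjusted p alone 5 of the 9 passed in WT and 6 in KO, where 54.0% and 67.7% of all genes did.

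The change in translation level, KO against WT, is the difference of these log2 ratios, tested as the interaction of genotype and fraction. Of the 9 tested members 3 were called lower, Bcl2l1, Bbc3 and Bak1, and 0 higher, where 8.81% of all genes were called lower, 6.29% higher and 15.1% in either direction. By the adjusted p alone 5 of the 9 passed, where 28.2% of all genes did. The median log2 change of the 9 was -0.52, beside 0.01 over all genes. In this comparison 808 genes were called higher and 1132 lower, and 282 and 2070 with total counts, a scaling that moved the median of all genes to -0.32. Of the 8 ESC markers 2 were also called lower and 0 higher, with a median of -0.56, and their part in the values of the members was not tested.

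Bcl2l1 fell in translation level by 1.35 on the log2 scale (SE 0.22, adjusted p = 8.58e-06). Its 3 KO gradients gave log2 ratios of 0.02, -0.30 and -0.18, all below the WT gradients given above. Bbc3 fell by 1.22 (SE 0.23, adjusted p = 8.18e-05), with ratios of -0.25, -0.40 and -0.43 in WT and -1.60, -1.67 and -1.38 in KO. Bak1 fell by 1.15 (SE 0.24, adjusted p = 0.000316), with ratios of 0.16, -0.21 and -0.35 in WT and -1.39, -1.51 and -1.02 in KO. In all 3 genes the gap between genotypes was wider than the spread within either. The 3 were picked by their calls on this difference, so the gap adds no separate evidence.

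Bid had ratios of 0.53, 1.05 and 0.66 in WT and -0.10, -0.10 and -0.20 in KO, and its change of -0.90 (SE 0.26, adjusted p = 0.00775) lay under the fold threshold. Bid was called at -1.23 when libraries were scaled by total counts and at -1.01 without the first WT gradient, which made 4 called members in place of 3. Trp53 was the 1 member with a change in the other direction that passed the adjusted p alone. Its ratios were 0.79, 0.66 and 0.77 in WT and 1.59, 1.06 and 1.51 in KO, a change of 0.65 (SE 0.21, adjusted p = 0.0153), under the fold threshold. The changes of Bax (-0.52, SE 0.21, adjusted p = 0.0664), Bcl2l11 (-0.37, SE 0.23, adjusted p = 0.241) and Mdm2 (-0.35, SE 0.19, adjusted p = 0.191) did not pass, and that of Mcl1 was -0.05 with a 95% interval of -0.37 to 0.28. The 3 KO gradients lay below the 3 WT gradients for 7 of the 9 tested members, above them for Trp53 and overlapped them for Mcl1, where 21.4% of all genes lay below and 20.3% above.

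**Figure D3:**
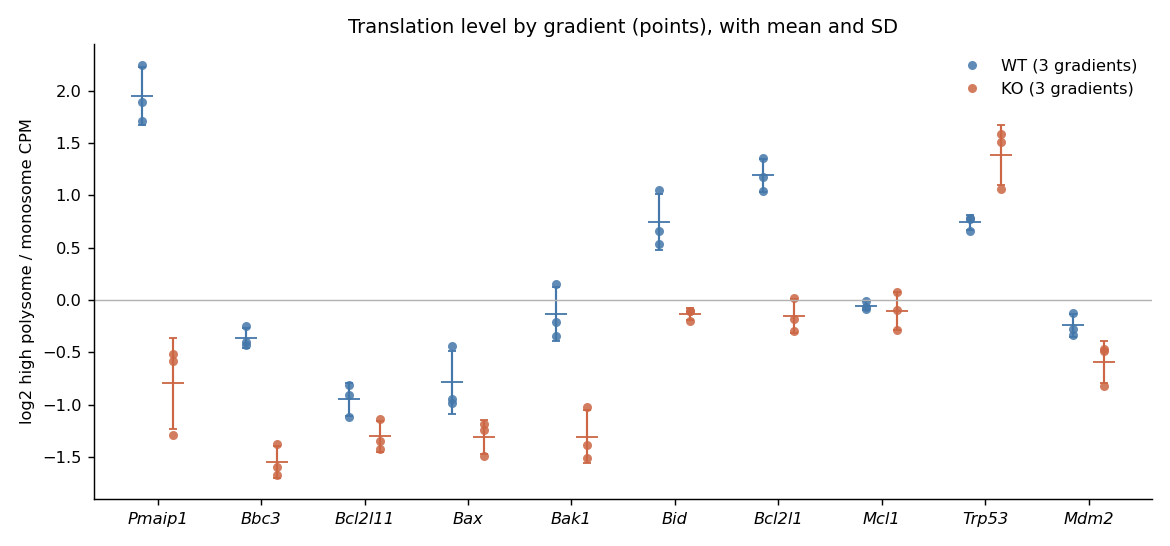
Log2 ratio of high polysome to monosome level (y axis) in each of the 3 WT and 3 KO gradients for the 10 messages; points are gradients, with the mean and SD. The KO points lie above the WT points for Trp53, on both sides of them for Mcl1 and below them for every other message, as they did for 21.4% of all genes.

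The gradient can be divided at the low polysomes. Between monosomes and low polysomes 1 of the 9 members, Bak1, fell by 1.08 (SE 0.23, adjusted p = 0.000844), where 3.81% of all genes were called lower, 1.23% higher and 5.03% either. Its log2 low polysome to monosome ratios were 1.21, 1.07 and 0.93 in WT and -0.03, 0.07 and -0.06 in KO, which did not overlap. Bbc3 at -0.83 (SE 0.21, adjusted p = 0.00532) and Bax at -0.74 (SE 0.20, adjusted p = 0.0112) lay under the fold threshold, and without the third WT gradient Bbc3 was called at -1.03. Between low and high polysomes limma called 0 members, where 2.89% of all genes were called lower, 2.29% higher and 5.18% either. In that step 3 members had an unadjusted p under 0.05, and edgeR and DESeq2 also called 0. The largest values of that step were those of Bid at -0.92 (SE 0.22, adjusted p = 0.00317) and Bcl2l1 at -0.72 (SE 0.18, adjusted p = 0.00459), and Bid was called at -1.16 without the first KO gradient. By the adjusted p alone 3 of the 9 members passed in the lower step and 2 in the upper one, where 11.4% and 17.8% of all genes did. The called higher and lower genes numbered 158 and 489 in the lower step and 294 and 372 in the upper one, and with total counts 81 and 697, and 122 and 844.

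Over the whole table the change in translation level varied with the length of the coding sequence. In 30 bins of coding length the median log2 change was -1.01 in the shortest bin (393 genes, median 270 nt) and 0.65 in the longest (392 genes, median 6933 nt). Of the members, 9 of the 10 have a coding sequence shorter than the median of 1362 nt over 11763 protein-coding genes. Pmaip1 has 309 nt, or 103 codons, and its log2 change in translation level of -2.83 compares with a median of -1.13 over 187 genes within 10% of its length, of which 47.1% were called lower. Bbc3, at 579 nt, compares with a median of -0.72 over 683 genes, 26.4% of them called lower. Bak1, at 627 nt, compares with a median of -0.64 over 796 genes, 22% of them called lower, and Bcl2l1, at 699 nt, with -0.53 over 790 genes, 17.1% of them called lower. Of the 9 tested members 5 lay below and 4 above the median of genes of their own length.

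With the trend on coding length subtracted, 0 of the 9 members were called in translation level, where 6.31% of all genes with a coding length were, and limma gave an unadjusted p under 0.05 for 5 of them. Bcl2l1 was then at -0.84 (SE 0.22, adjusted p = 0.00628) and Trp53 at 0.72 (SE 0.21, adjusted p = 0.0127), and both passed the adjusted p alone. Bbc3 at -0.56 (SE 0.23, adjusted p = 0.0893) and Bak1 at -0.56 (SE 0.24, adjusted p = 0.110) no longer passed it, and Pmaip1 was at -1.82 (SE 0.48). Within fractions, the same step ended the calls of Bbc3 in low and high polysomes and of Bid in high polysomes, whose values are given above. The rise of Bak1 in monosomes was 1.62 and was still called, and its high polysome value of 1.06 was called only after this step. Coding length moves with the change in translation level, and its part in the values of single members was not tested.

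**Figure D4:**
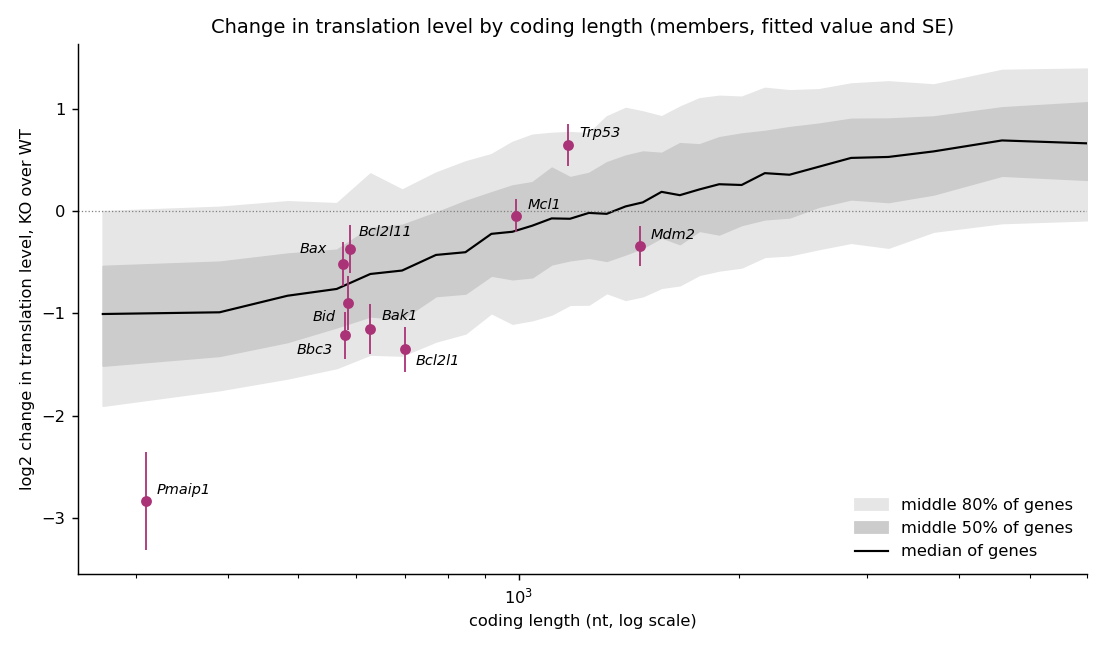
Log2 change in translation level, KO over WT (y axis), against coding length in nt (x axis, log scale); points are the 10 members with SE, the line is the median of genes in 30 bins of equal size and the bands hold the middle 50% and 80% of genes. Pmaip1 at -2.83 lies below both bands, Bcl2l1 at -1.35 lies near the lower edge of the wide band, and Trp53 at 0.65 lies above the middle 50%.

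Genes whose level followed that of Pmaip1 over the 18 libraries were sought among 7451 genes with a mean count of at least 50. The highest Pearson correlations of log2 CPM were those of Egfl6 (0.97), Rragd (0.97), Dennd6a (0.96), Asb8 (0.96) and Dazap2 (0.95). The libraries share gradients and 2 genotypes, so these are descriptions. The mean monosome level of Egfl6 was 6.15 CPM in WT and 45.8 CPM in KO, and its mean high polysome level was 12.9 and 28.1 CPM. Among the members, Pmaip1 correlated most with Bak1 (0.67), and the strongest negative value was that between Bax and Trp53 (-0.91).

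The rest of the pathway was described by lists of genes. Counts of the lists under other settings are set against these counts of all genes. In translation level 282 of 12851 rose and 2070 fell with total counts, and 392 of 11763 rose and 350 fell with the trend on coding length subtracted. In high polysomes the counts were 1426 and 3114 with total counts, and 1595 and 1383 with the trend subtracted. In low polysomes 1305 rose and 1186 fell with the trend subtracted. Of 12 tested members of the BCL2 family other than the 10, 2 fell in translation level and 0 rose, where 8.81% of all genes were called lower and 6.29% higher, with a median log2 change of -0.68. With total counts 5 fell, and with the trend on coding length subtracted limma called 0, with an unadjusted p under 0.05 for 0 of them, and the median was 0.14. The 2 were Bnip3l, a receptor for the removal of mitochondria, at -1.23 (SE 0.42, adjusted p = 0.0232) and Bad, a BH3-only gene governed by growth factor signals, at -1.05 (SE 0.24, adjusted p = 0.000781). The mean monosome level of Bad was 69.1 CPM in WT and 120 CPM in KO, its mean low polysome level was 134 and 82.1 CPM, and its low polysome to monosome ratio fell by 1.52 (SE 0.21, adjusted p = 9.19e-07). In monosomes 2 of the 12 genes rose and 2 fell, where 8.43% of all genes were higher and 9.63% lower. With edgeR 1 rose and 2 fell there, where 1143 and 1247 of 12851 genes did. With DESeq2 0 rose and 2 fell, where 1087 and 1173 of all genes did. In low polysomes 4 fell, where 13.6% of all genes did, and in high polysomes 2 fell, where 17.9% did. With the trend on coding length subtracted, 2 fell and 1 rose in low polysomes and likewise in high polysomes.

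Of 19 tested regulators of p53, 1 rose and 2 fell in translation level, with a median of 0.24, where 15.1% of all genes were called in either direction. Crebbp, an acetyltransferase that acts with p53, rose by 1.25 (SE 0.22, adjusted p = 3.06e-05), with mean high polysome levels of 114 CPM in WT and 273 CPM in KO at similar monosome levels of 39.8 and 41.4 CPM. Rchy1, a ubiquitin ligase of p53, fell by 1.11 (SE 0.32, adjusted p = 0.00796). With libraries scaled by total counts alone, 0 regulators rose and 3 fell in translation level and their median was -0.08. Of these regulators 0 rose and 1 fell in monosomes, limma called 0 in low polysomes with an unadjusted p under 0.05 for 9, edgeR and DESeq2 called 0 there too, and 1 rose and 2 fell in high polysomes. Over all genes 18.1%, 25.0% and 33.1% were called in these fractions.

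Of 25 tested p53 target genes other than the members, 2 rose and 0 fell in monosomes, 5 rose and 1 fell in low polysomes, and 5 rose and 1 fell in high polysomes, with medians of 0.20, 0.13 and 0.05. Over all genes 8.43%, 11.4% and 15.1% were called higher in these fractions. Perp, a membrane protein gene induced by p53, had 11.98, 14.9 and 16.7 CPM in the 3 WT fractions and 40.3, 66.3 and 49.2 CPM in KO, and rose by 1.68 in monosomes (SE 0.28, adjusted p = 6.05e-06). Ei24, which encodes a protein of the endoplasmic reticulum, rose by 1.11 in monosomes (SE 0.12, adjusted p = 1.81e-09) and by 1.63 in high polysomes (SE 0.12, adjusted p = 1.44e-14). Tnfrsf10b, the receptor of the death ligand TRAIL, rose by 1.42 in low polysomes (SE 0.13, adjusted p = 3.52e-12). Zmat3, which encodes an RNA-binding protein, fell by 1.17 in high polysomes (SE 0.12, adjusted p = 7.48e-11) and by 1.01 in translation level (SE 0.18, adjusted p = 3.69e-05), the 1 target called there of 25, which DESeq2 and limma with DESeq2 size factors did not call. With the trend on coding length subtracted 2 targets rose and 0 fell in translation level, and with total counts 0 rose and 3 fell. With total counts, 4 targets rose and 4 fell in high polysomes, with a median of -0.17. Over all 12851 genes 1426 rose and 3114 fell there, with a median of -0.31.

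Of 21 tested genes of the caspase pathway, 2 rose and 2 fell in translation level, with a median of -0.41, where 6.29% of all genes were called higher and 8.81% lower. The counts were 1 higher and 0 lower with the trend on coding length subtracted, and 1 and 4 with total counts. Casp2, an initiator caspase, rose by 1.40 (SE 0.33, adjusted p = 0.00103) and Aifm1, a mitochondrial flavoprotein, by 1.07 (SE 0.23, adjusted p = 0.000338), while Diablo, which encodes the antagonist of caspase inhibitors SMAC, fell by 1.22 (SE 0.21, adjusted p = 1.73e-05). In high polysomes 3 rose and 6 fell, where 15.1% of all genes were higher and 17.9% lower, and the counts were 1 and 7 with total counts and 1 and 3 with the trend on coding length subtracted. Birc5, which encodes survivin, fell there from 517 to 168 CPM, by 1.63 on the log2 scale (SE 0.11, adjusted p = 1.56e-15), and Casp9, the caspase of the apoptosome, from 41.1 to 15.2 CPM, by 1.42 (SE 0.22, adjusted p = 3.83e-07). In monosomes 2 rose and 2 fell, where 18.1% of all genes were called, and in low polysomes 4 rose and 2 fell, where 25.0% were. Of 6 tested genes that set the turnover of the MCL1 protein limma, edgeR and DESeq2 called 0 in translation level, with an unadjusted p under 0.05 for 2 of them in limma and 1 in DESeq2. March5, a ubiquitin ligase of the outer mitochondrial membrane, fell in high polysomes by 1.28 (SE 0.13, adjusted p = 1.12e-10), and 0 of the 6 were called there by limma with the trend on coding length subtracted, with an unadjusted p under 0.05 for 1.

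Checks of the libraries gave these values. The monosome level of Dgcr8 was 74.8 ± 5.75 CPM in WT and 50.2 ± 2.58 CPM in KO (SD, n = 3), with 62.8 and 46.6 CPM in low and 27.7 and 15.4 CPM in high polysomes. These are reads of the 3′ end, and the place of the deletion is not given in the sources used here, so they do not check the genotype. The 8 ESC markers summed to 2744 to 5192 CPM, before TMM scaling, in WT and 2830 to 3302 CPM in KO libraries, and none was at 0. In translation level Pou5f1, a core pluripotency factor, fell by 1.77 (SE 0.29, adjusted p = 7.74e-06) and Dppa5a by 1.57 (SE 0.27, adjusted p = 2.88e-05), and both also fell in high polysomes, by 1.42 and 1.65. Only reads that mapped to 1 place had been kept, and what this left out for Pou5f1 and Dppa5a was not tested. The other 6 were not called in translation level, and 0 of the 8 were called in monosomes or low polysomes by limma, edgeR or DESeq2, with an unadjusted p under 0.05 in limma for 4 and 6 of them. The 8 fibroblast markers summed to 10.1 to 17.2 CPM in WT and 5.02 to 27.7 CPM in KO. The 8 primitive endoderm markers summed to 21.7 to 59.6 CPM in WT and 6.62 to 26.3 CPM in KO, and their part in the differences between genotypes was not tested.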

How the data were processed

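The authors deposited raw counts of reads per gene for 18 QuantSeq libraries (3′ end sequencing), with no normalisation. Reads were trimmed with Cutadapt 1.14, aligned to mm10 with STAR 2.5.3a and kept where they mapped to 1 place, and counted by strand over GENCODE M14 genes with featureCounts 1.5.3. No molecular identifiers were stated, so counts include PCR copies. Rows of 92 spike-in sequences, at most 0.00215% of reads, were left out. Of the 51467 genes, 51274 matched GENCODE M21 by identifier, which gave coding lengths and 3′ UTRs.

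From these counts, limma 3.58.1 (voom, with TMM factors from edgeR 4.0.16, R 4.3.3) was fitted to all 18 libraries with 1 mean per group, over the 12851 genes with at least 3 CPM in at least 3 libraries. Tests were two-sided, moderated, and adjusted by Benjamini-Hochberg over all genes tested. Calls needed an adjusted p below 0.05 and a log2 change above 1 in size. On simulated counts for the change in translation level (12538 genes), 96 of 100 genes changed by 1.5 and 99 of 100 changed by 2 on the log2 scale were called, and 5 unchanged genes were. The changed genes had a simulated mean count of at least 50. The simulation held no trend on coding length and no link between fractions of 1 gradient, so these rates need not hold for the real libraries. Plots and ratios per gradient used log2 CPM with a prior count of 2. A locally weighted curve (span 0.5) over protein-coding genes gave the trend on coding length.

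The members and lists were chosen with earlier results of these data known. Pmaip1 was left out of every test and count of members, since each of its contrasts enters the difference that chose it. Named genes were all members, at most 2 higher and 2 lower called genes per list and comparison with the largest log2 change and a mean count of at least 50, the 5 genes most correlated with Pmaip1, and Dgcr8. Hrk was named outside this rule. The lists were other BCL2 family genes, p53 regulators, p53 targets, the caspase pathway, MCL1 turnover, and ESC, fibroblast and primitive endoderm markers. Alternatives were other scalings and filters, edgeR, DESeq2 1.42.0, a block, each gradient left out and the trend on coding length.

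Per the labels, fractions of the same genotype and number come from 1 gradient, so they are paired by design. The deviations of fractions of 1 gradient from their group means correlated at 0.033 to 0.245 over 18 pairs (median 0.125, 7451 genes).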

Additional observations from a re-analysis of the deposited data

Results flagged for a closer look

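In 4 results the 2 genotypes differed in how a message was spread along the gradient, by the interaction of genotype and fraction in limma. The high polysome to monosome ratio of Bbc3 changed by -1.22 on the log2 scale (SE 0.23, KO minus WT), that of Bak1 by -1.15 (SE 0.24) and that of Bcl2l1 by -1.35 (SE 0.22). The low polysome to monosome ratio of Bak1 changed by -1.08 (SE 0.23). In each of the 4 the 3 KO gradients lay below the 3 WT gradients. The same held for 21.4% of all genes in the high polysome to monosome ratio. No such share was taken for the low polysome to monosome ratio. The 4 were picked by their calls, so the lack of overlap adds no separate evidence. With the trend on coding length subtracted, the values were -0.56, -0.56, -0.84 and -0.86, all under the fold threshold.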

How the results depend on the processing

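Members were counted under 17 alternatives, and of 1119 values for 67 results, 1065 kept their direction and their side of the threshold. With the trend on coding length subtracted, the called members went from 3 to 0 in translation level, from 1 to 0 between monosomes and low polysomes, from 1 to 0 in low polysomes and from 2 to 1 in high polysomes, where Bak1 replaced Bbc3 and Bid. Called genes over the whole table also fell, from 1940 of 12851 to 742 of 11763 in translation level. They went from 647 to 250 between monosomes and low polysomes, from 3216 to 2491 in low polysomes and from 4249 to 2978 in high polysomes. Without a fold threshold the counts of members were 5 in translation level, 3 and 2 in the lower and upper step of the gradient, 2 in monosomes, 4 in low polysomes, 6 in high polysomes, and 5 for the ratio within WT cells. The matching shares of all genes are given above. Total counts in place of TMM factors called Bid at -1.12 in the upper step, which made 1 member there, and at -1.23 in translation level, which made 4 in place of 3. A stricter filter called 2 members in place of 1 for the ratio within WT cells, with Bcl2l11 at -1.03. With 1 gradient left out, the counts of members ranged from 3 to 4 in translation level and from 1 to 2 for the ratio within WT cells (in both the higher without the first WT gradient, with Bid at -1.01 and Bcl2l11 at -1.02), from 1 to 2 in the lower step (2 without the third WT gradient), from 0 to 1 in the upper step (1 without the first KO gradient, Bid) and from 0 to 1 in low polysomes (0 without the first KO gradient). Over all genes these fits called 1630 to 2065, 3449 to 3899, 557 to 785, 511 to 809 and 2942 to 3193, in that order.

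Values that changed sign were close to 0 or moved by the trend on coding length, and were not called. With that trend subtracted, the change in translation level was 0.27 for Bcl2l11, 0.14 for Bax and 0.16 for Mcl1. The high polysome difference was 0.47 for Bcl2l11 (limma adjusted p = 0.0159) and 0.45 for Bax (adjusted p = 0.0112), which both passed the adjusted p alone. In high polysomes this step moved the median of the 9 tested members from -0.28 to 0.31, and that of all genes from -0.08 to -0.05. Mcl1 was at -0.11 in high polysomes with total counts, and its WT translation level was 0.024 with total counts and 0.051 with no filter. Bcl2l1 was at -0.0028 in low polysomes under a stricter filter. With 1 gradient left out, Mcl1 ranged from -0.13 to 0.0089 in translation level change, from -0.071 to 0.15 in low polysomes, from -0.090 to 0.018 in WT and from -0.19 to 0.018 in KO translation level, and Bcl2l11 from -0.024 to 0.21 in low polysomes. The cause of these sign changes was not tested.

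A block on the gradient, or on the replicate number between genotypes, changed no call of a member: 3 members were called in translation level with the block, as without it. Across genotypes the samples share only a number, and deviations of samples with the same number correlated at -0.013 to 0.193 over 9 pairs, 4 of them over 0.1. Depth limits Pmaip1 in WT monosomes, where libraries held 5 to 8 reads and 3 reads correspond to 1.94 to 2.65 CPM. All tests rest on 3 gradients per genotype.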
